A study of Mus musculus with 6 samples.

Results

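The genes described here make up the sterol regulatory element-binding protein (SREBP) pathway and the synthesis of cholesterol, fatty acids and triglycerides, and they were chosen by gene symbol from a list of 36 names. Of these, 33 had rows in the counts table of 12107 genes, which gave 99 of its 36321 regions. They comprise 4 of 5 regulators, 17 of 19 genes of the sterol branch, all 10 genes of the fatty acid branch and both enzymes that close triglyceride synthesis. Insig2, Pmvk and Fdft1 were not analysed here. RNA polymerase II (Pol II) on these genes was mapped by ChIP-seq, in which fragments of fixed chromatin are precipitated and sequenced, here with an antibody against the N-terminus of POLR2A (RPB1), the largest subunit. Mouse neural precursor cells (NPCs) were used as second-passage neurospheres, started from ganglionic eminences at embryonic day 13.5. In the 3 wild-type (WT) libraries Armc5 was intact, and in the 3 knockout (KO) libraries it was deleted in the whole animal, so that the cells had lacked it throughout development. ARMC5 is a part of a CUL3 ubiquitin ligase that targets POLR2A, and no treatment was given to either genotype. The labels give the strain as 129 sv X CD1 for both genotypes, whereas the study's methods describe a CD1 x C57BL/6 background. The sources used here do not say whether a library came from 1 fetus or from pooled fetuses.

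The 33 genes divide by what they do. SREBPs, encoded by Srebf1 and Srebf2, are membrane-bound transcription factors. SCAP carries them from the endoplasmic reticulum to the Golgi apparatus, where they are cut and released, and INSIG proteins hold SCAP back when sterols are plentiful. The released factors bind sterol regulatory elements in the promoters of genes for sterol and fatty acid synthesis, often beside sites for NF-Y and Sp1. The developing brain makes its own cholesterol, since lipoproteins do not cross the blood-brain barrier, and dividing precursors need sterols and fatty acids for new membrane. DGAT1 and DGAT2, which are unrelated in sequence, catalyse the last step of triglyceride synthesis, and the product is stored in lipid droplets.

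Of the 99 regions, 1 passed the test of KO against WT: the gene body of Dgat2, which was higher in KO. The calls were made in a limma-voom fit over all 36321 regions with the replicate pair as a block, at a Benjamini-Hochberg adjusted p under 0.1. The other 32 gene bodies, all 33 promoters and all 33 TES regions (at and beyond the transcription end site, TES) did not pass, in either branch. Over all genes 0.206% of gene bodies, 0.173% of promoters and 0.0248% of TES regions were called, and 0.173% of gene bodies were called as higher in KO. The call on Dgat2 was already known from earlier results of these data when the genes were chosen. It is therefore no independent support, and its share is not to be weighed against these shares. Values below are CPM, read counts scaled to a common library size with TMM factors, in each library, and differences are log2 fold changes of KO over WT, estimate ± SE. With no spike-in these values are relative, and a rise in Pol II shared by all regions would not show in them.

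Sums over the regions of the table were 14528870 to 25199455 reads a library. Both libraries of pair 3 stood apart, with 6.04% and 6.88% of their reads on promoters, against 10.9% to 12.2% in the other 4. The neural precursor list had 11 of 14 markers in the table, and its summed gene body level was 484 to 836 CPM in WT and 499 to 897 CPM in KO. The microglia and blood cell list, the endothelial and mural list and the mesenchymal list each had 1 marker in the table (Cd68, Kdr and Prrx1), with at most 30.3, 45.4 and 81.1 CPM in any library. The neuronal list (8 of 10 markers) summed to 1160 to 1500 CPM in WT and 1080 to 1420 CPM in KO, the astrocyte list (5 of 8) to 245 to 256 and 234 to 296 CPM, and the oligodendrocyte lineage list (7 of 10) to 317 to 541 and 303 to 513 CPM. The sums were not divided by gene length, so they do not rank the lists against each other. Most of the neuronal sum came from Map2 and Syt1, with WT means of 604 and 389 CPM. In the neural precursor list Slc1a3 was highest, with a WT mean of 229 CPM, and Sox2 had 22.5 CPM. None of the 102 regions of the 34 markers in the table was called by limma-voom, edgeR or DESeq2, and 12, 11 and 4 of them had an unadjusted p under 0.05. In limma-voom these were 2 of 34 promoters, 6 of 34 gene bodies and 4 of 34 TES regions. Over all genes the shares were 9.95%, 8.41% and 6.24%.

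Dgat2 lies at chr7:99153663-99182713 on the minus strand (RefSeq, GRCm38.p6), and no other annotated gene overlaps its promoter, body or TES region. Its gene body had 22.1, 28.9 and 35.9 CPM in WT replicates 1, 2 and 3, and 39.4, 51.3 and 45.5 CPM in KO replicates 1, 2 and 3, on 442 to 1095 reads a library. Every KO library was above every WT library. The mean was 29.0 ± 6.89 CPM in WT and 45.4 ± 5.93 CPM in KO (SD, n = 3 each). The log2 fold change was 0.70 ± 0.10, a 1.62-fold rise (limma-voom adjusted p = 0.0395), and it was 0.83, 0.83 and 0.34 in pairs 1, 2 and 3.

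**Figure D1:**
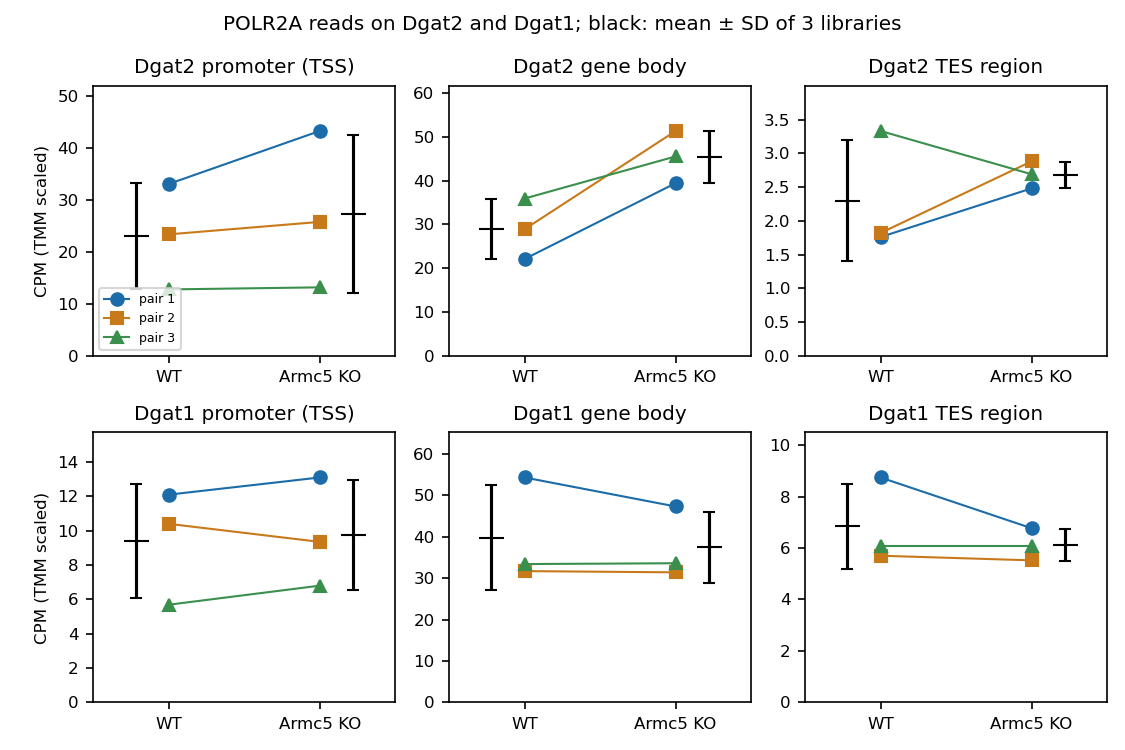
CPM on the promoter, gene body and TES region of Dgat2 (top) and Dgat1 (bottom), with WT and KO of a pair joined by a line and the mean ± SD of 3 libraries in black. The Dgat2 gene body rose in all 3 pairs, from 22.1 to 35.9 CPM in WT to 39.4 to 51.3 CPM in KO, whereas Dgat1 lay at 31.7 to 54.3 CPM in WT and 31.4 to 47.3 CPM in KO.

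The promoter of Dgat2 (from 400 bases upstream to 100 downstream of the transcription start site, TSS) had 33.1, 23.4 and 12.8 CPM in WT and 43.3, 25.8 and 13.2 CPM in KO. The pairs differed far more than the genotypes there, and pair 3 was lowest in both. KO was above WT within each pair, with a log2 fold change of 0.25 ± 0.10 that did not pass (limma-voom adjusted p = 0.547) and was 0.11 without WT or KO replicate 1. The TES region, with 1.76 to 3.33 CPM over the 6 libraries, differed by 0.32 ± 0.24 (adjusted p = 0.767), and here pair 3 went the other way.

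The call on Dgat2 depended on the fit. Without the replicate block the estimate was 0.69 with an adjusted p of 1, and with each region type scaled and adjusted on its own it was 0.69 with an adjusted p of 0.134. Without WT replicate 2 it was 0.61 (adjusted p = 0.198) and without the whole of pair 2 it was 0.62 (adjusted p = 0.367). Without KO replicate 2 it was 0.61, and the call was kept by little (adjusted p = 0.0932). Without pair 3, whose libraries stood apart, it was 0.84 (adjusted p = 8.14e-05). The estimate stayed between 0.61 and 0.84 under all 17 alternatives, of which 13 kept the call. These alternatives are not independent. Under the block, leaving out either library of a pair or the whole pair rests on the same remaining pairs.

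Dgat1, which catalyses the same step, gave a different picture. Its gene body had 54.3, 31.7 and 33.4 CPM in WT and 47.3, 31.4 and 33.6 CPM in KO. The genotypes overlapped, and replicate 1 was highest in both. The log2 fold change was -0.09 ± 0.08 (limma-voom adjusted p = 0.806), and without pair 1 it was 0.00. Within the pairs, the log2 difference of Dgat2 exceeded that of Dgat1 by 1.03, 0.84 and 0.33. With 3 pairs an exact two-sided permutation test cannot go below p = 0.25, so this contrast is given as values.

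Dgat2 also stood out by where Pol II lay in WT. Per kilobase of gene its body had 1.0 ± 0.239 CPM, rank 31 of the 33 genes and at the 25.1st percentile of all genes with a length. Its promoter, at 46.2 ± 20.4 CPM per kb, lay at the 98.7th percentile, below that of Insig1 at 82.9 CPM per kb. The promoter to body density ratio of Dgat2 was 46.0, at the 99.8th percentile and the highest of the 33, ahead of Acaca at 26.2 and Hsd17b7 at 24.8. In KO the mean body density of Dgat2 was 1.57 CPM per kb.

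Across the 33 genes in WT, gene body density was above the median of all genes in 28, with a median of 2.27 CPM per kb against 1.4 for all genes. Lengths came from RefSeq, since no source used here names the annotation behind the counts. Scd2, a stearoyl-CoA desaturase abundant in brain, was highest at 10.0 ± 3.66 CPM per kb (SD, n = 3). Insig1 followed at 7.09 ± 0.83, and its range of 6.16 to 7.76 overlapped that of Scd2, 6.36 to 13.7. Fasn, the fatty acid synthase, had 5.35 ± 1.32, and Tm7sf2, a sterol reductase, had 5.2 ± 1.09 CPM per kb. Nsdhl, which removes a carbon from the sterol ring system, was lowest at 0.699 ± 0.212, below Me1, the malic enzyme that supplies NADPH, at 0.888 ± 0.309. Scd1 and Scd2 are close paralogs, and no source used here says how reads that match both were assigned.

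**Figure D2:**
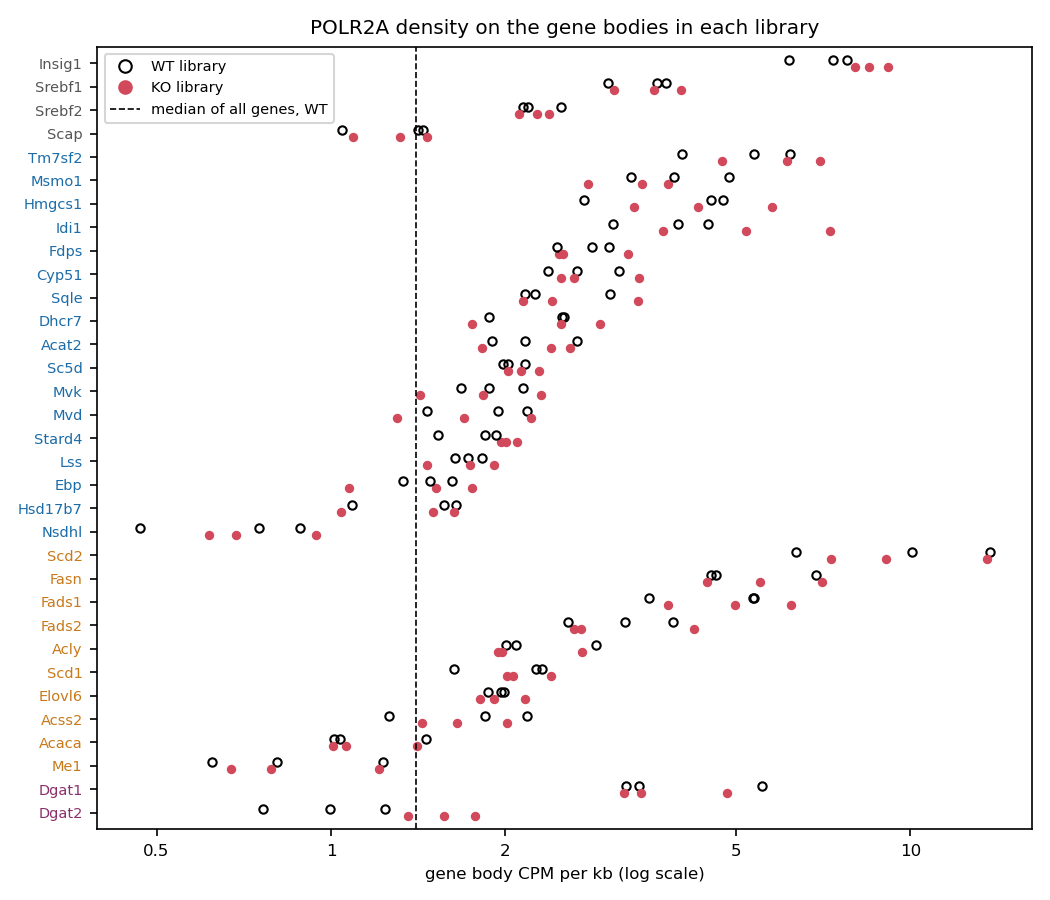
Gene body CPM per kilobase of each gene (log axis), with open circles for the 3 WT libraries and red points for the 3 KO libraries, grouped as regulators (grey names), sterol branch (blue), fatty acid branch (orange) and triglyceride enzymes (purple). The dashed line is the WT median of all genes, 1.4, and Scd2, at 10.0 in WT, is the highest and Nsdhl, at 0.699, the lowest.

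The distribution along the genes differed little from the rest in promoter loading. The median promoter to body density ratio was 5.56 for the 33 genes and 6.97 for all genes, and 14 of the 33 were above the latter. The ratio of the TES region to the body had a median of 1.66, against 1.17 for all genes, and 24 of the 33 were above that value. The TES region of 13 of the 33 genes overlapped another annotated gene, and that of Srebf1 lay wholly within Rai1. Another gene also overlapped the promoter of 13 of the 33, Acaca and Hsd17b7 among them, and the body of 16. The body of Mvd lay wholly within Gm20388. Reads where genes overlap cannot be assigned to 1 of them.

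The regulators had nearly the same scaled gene body CPM in both genotypes, with the exception of Insig1. Srebf1, which mainly drives fatty acid genes, had 90.8, 94.1 and 74.9 CPM in WT and 100.0, 89.9 and 76.6 CPM in KO, a log2 fold change of 0.04 ± 0.07. Srebf2, which mainly drives sterol genes, had 124.0, 144.0 and 126.0 CPM in WT and 122.0, 137.0 and 131.0 CPM in KO, a log2 fold change of -0.02 ± 0.06. Scap differed by -0.02 ± 0.07.

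Insig1, itself a known SREBP target, had 51.9, 54.7 and 43.5 CPM in WT and 64.4, 56.6 and 59.8 CPM on its gene body in KO. All KO values were above all WT values. The log2 fold change was 0.25 ± 0.08 and did not pass (limma-voom adjusted p = 0.438). Its promoter, at 53.1, 42.3 and 29.0 CPM in WT and 58.4, 35.7 and 27.5 CPM in KO, differed by -0.04 ± 0.09.

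In the sterol branch, gene body differences were small and of both signs. The median log2 fold change of the 17 genes was 0.06, with 11 above 0 and 6 below, and it ran from -0.27 in Msmo1 to 0.50 in Idi1. By pair the branch median was 0.16, -0.02 and -0.01, so its sign was that of pair 1. Over all 12107 genes the median was -0.01. None of the 17 gene bodies was called by limma-voom, edgeR or DESeq2, and 3, 2 and 2 had an unadjusted p under 0.05. Over all 12107 gene bodies, 1018, 917 and 383 had such a p. In limma-voom the shares were 17.6% of the branch and 8.41% of all.

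The early steps are run by Acat2 and Hmgcs1, which build the carbon skeleton of mevalonate, and by Mvk and Mvd, which phosphorylate and decarboxylate it. Hmgcs1 had 84.0, 80.0 and 48.3 CPM in WT and 102.0, 76.1 and 58.9 CPM in KO on its gene body, a log2 fold change of 0.15 ± 0.08 (limma-voom adjusted p = 0.659). Pair 3 was lowest in both genotypes, and the pairs spanned more than the genotypes. Acat2 differed by 0.03 ± 0.09, Mvk by -0.04 ± 0.10 and Mvd by -0.10 ± 0.11.

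Idi1, the isomerase that makes dimethylallyl diphosphate, was next to Dgat2 in the order of p. Its gene body had 26.2, 29.5 and 20.2 CPM in WT and 47.8, 34.3 and 24.6 CPM in KO. KO was higher in each pair, by 0.87, 0.22 and 0.28 on the log2 scale, but KO replicate 3 lay below WT replicates 1 and 2. The log2 fold change of 0.50 ± 0.12 did not pass (limma-voom adjusted p = 0.23). It passed at 0.55 without WT replicate 3 (adjusted p = 0.0222) and at 0.55 without KO replicate 3 (adjusted p = 0.0228). It also passed at 0.565 without the whole of pair 3 (adjusted p = 0.0256) and at 0.69 without KO replicate 2 (adjusted p = 0.0628). Those fits called 150, 149, 152 and 101 of all gene bodies, against 25 with all libraries. The Idi1 difference did not pass without WT replicate 2 (0.70, adjusted p = 0.145) or without the whole of pair 2 (0.71, adjusted p = 0.312). It was 0.24 without WT replicate 1 (adjusted p = 0.467) or without KO replicate 1 (adjusted p = 0.466). A gene annotated on the other strand, Gm48574, overlaps the whole Idi1 promoter, and ChIP reads carry no strand, so the 2 genes cannot be told apart there.

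The later enzymes act on squalene and the sterol rings. Sqle, the squalene epoxidase, had 48.2, 35.8 and 34.4 CPM in WT and 54.0, 38.3 and 34.1 CPM in KO on its gene body, a log2 fold change of 0.10 ± 0.08. Lss, which closes the ring, differed by -0.02 ± 0.09, and Cyp51, which demethylates lanosterol, by 0.06 ± 0.07. Dhcr7, which acts in the last step to cholesterol, differed by 0.06 ± 0.08, and Sc5d, the desaturase before it, by 0.07 ± 0.10.

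Msmo1, the methylsterol monooxygenase, was the lowest of the branch in KO relative to WT. Its gene body had 74.1, 59.6 and 50.2 CPM in WT and 58.2, 52.5 and 42.3 CPM in KO, lower in each pair by 0.35, 0.18 and 0.25 on the log2 scale. The genotypes overlapped across pairs, and the log2 fold change of -0.27 ± 0.07 did not pass (limma-voom adjusted p = 0.32). Stard4, a sterol carrier protein, had 22.3, 26.9 and 28.1 CPM in WT and 28.6, 30.5 and 29.2 CPM in KO, without overlap, a log2 fold change of 0.22 ± 0.10 (adjusted p = 0.593). The gene bodies of Dgat2, Insig1 and Stard4 were the only 3 of 33 in which the WT and KO libraries did not overlap. Over all genes, 2.1% of gene bodies had no overlap.

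In the fatty acid branch, the 10 gene bodies lay closer to 0, between -0.08 in Acly and 0.10 in Scd1. The median log2 fold change was 0.00, with 5 above 0 and 5 below, and it was 0.11, -0.07 and -0.02 in pairs 1, 2 and 3. None of the 10 gene bodies was called, or had an unadjusted p under 0.05, by limma-voom, edgeR or DESeq2. Acly, which makes cytosolic acetyl-CoA from citrate, had 147.0, 107.0 and 103.0 CPM in WT and 139.0, 99.7 and 101.0 CPM in KO. KO was below WT in each pair, by an estimate of -0.08 ± 0.06. Acaca, the acetyl-CoA carboxylase that commits carbon to fatty acids, had 276.0, 283.0 and 398.0 CPM in WT and 275.0, 289.0 and 383.0 CPM in KO, a log2 fold change of -0.01 ± 0.05.

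Fasn had 131.0, 86.3 and 88.1 CPM in WT and 134.0, 85.0 and 105.0 CPM in KO on its gene body, a log2 fold change of 0.07 ± 0.07. Scd2 had 178.0, 131.0 and 82.6 CPM in WT and 176.0, 118.0 and 94.7 CPM in KO, a log2 fold change of -0.01 ± 0.07. It varied 2.15-fold among the WT libraries, more than any other of these genes, with pair 3 lowest. Elovl6, the elongase of saturated fatty acids, varied least among the WT gene bodies, 1.06-fold, and differed by 0.02 ± 0.06. Fads1 and Fads2, desaturases of polyunsaturated fatty acids, differed by 0.07 ± 0.08 and -0.03 ± 0.08.

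The 2 branches were close to each other. The sterol median exceeded the fatty acid median by 0.05, 0.05 and 0.01 on the log2 scale in pairs 1, 2 and 3, and each branch's median moved by more than that between pairs. The median over all 33 gene bodies was 0.03, with 19 above 0 and 14 below. An unadjusted p under 0.05 was found in 5 of 33 gene bodies, 15.2%, against 8.41% of all gene bodies. The sign was the same in all 3 pairs in 7 of 33, 21.2%, against 30.6% of all gene bodies.

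**Figure D3:**
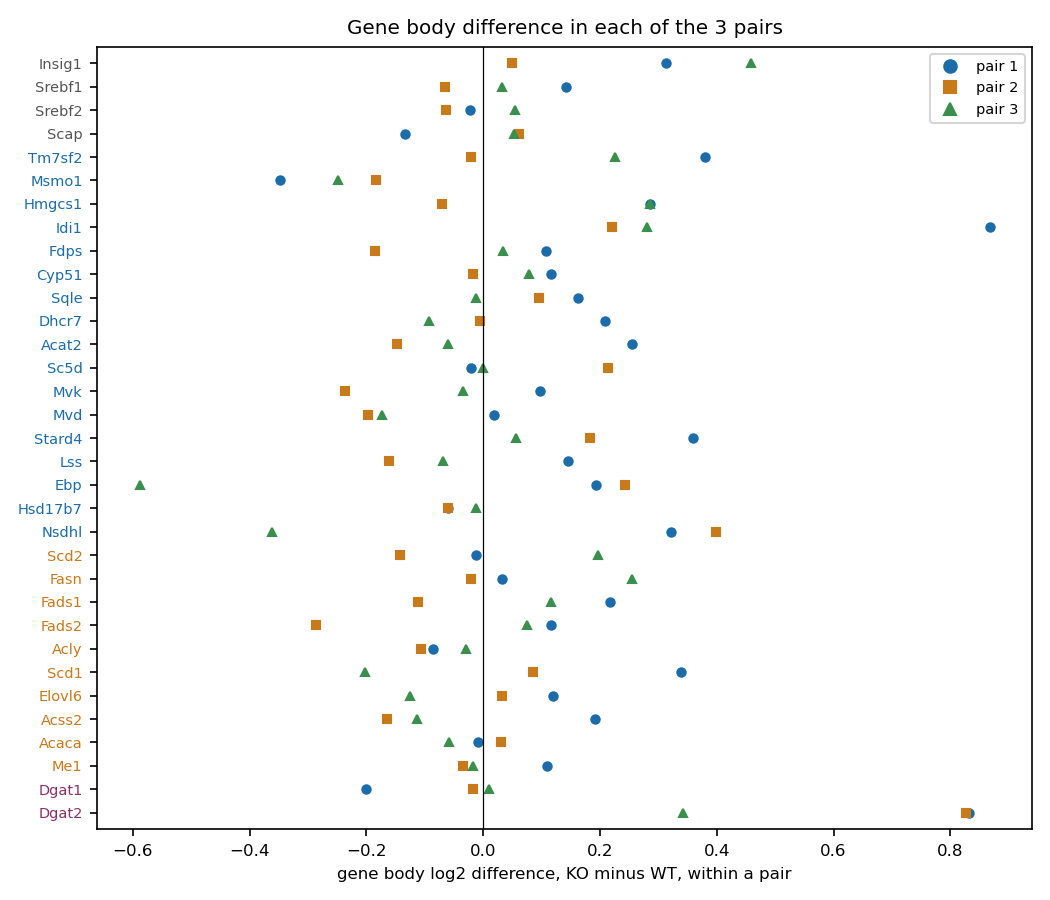
Log2 difference of the gene body, KO minus WT, within each of the 3 pairs for the 33 genes, with names coloured by group as regulators (grey), sterol branch (blue), fatty acid branch (orange) and triglyceride enzymes (purple). Dgat2 and Idi1 lay above 0 and Msmo1 below 0 in all 3 pairs, and 7 of the 33 genes kept the same sign in all 3.

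Differences between pairs were larger than those between genotypes. The mean of WT and KO differed among the 3 pairs by a median of 0.50 on the log2 scale, while the median size of the genotype difference was 0.06. The pair range exceeded the genotype difference in 30 of the 33 genes, and in 11720 of all 12107. Pair 3 was below the mean of the other pairs in 23 of the 33 gene bodies, 69.7%, and in 32.1% of all genes. Among the 2628 genes with a density at or above the median of the 33, however, 83.6% were lower in pair 3 by this measure. A low pair 3 thus went with high density in general.

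Promoters leaned to higher values in KO without any passing the test. Of the 33, 23 were above 0 and 10 below, with a median log2 fold change of 0.09, against 0.03 for all promoters. Over all genes 54.8% of promoters were above 0. None was called by limma-voom, edgeR or DESeq2. An unadjusted p under 0.05 was found in 6, 4 and 1, and in limma-voom these 6 were all higher in KO. The share of 18.2% stands beside 9.95% of all promoters. With each region type scaled and adjusted on its own, 4 of the 33 had such a p, and the median of all promoters was -0.002. With a library or pair left out, 3 to 10 of the 33 had such a p. The share of all promoters with such a p was not counted for edgeR, DESeq2 or the alternative fits. In the fatty acid branch, 8 of 10 promoters were above 0, with a median of 0.23 (0.21, 0.28 and 0.13 in pairs 1, 2 and 3), and in the sterol branch 11 of 17 were, with a median of 0.08 (0.28, -0.14 and -0.10).

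Hmgcs1, Idi1, Fads2 and Msmo1 had the smallest p among the promoters. The Hmgcs1 promoter had 13.5, 12.8 and 6.99 CPM in WT and 17.8, 15.5 and 9.98 CPM in KO, a log2 fold change of 0.37 ± 0.12 (limma-voom adjusted p = 0.437). The Idi1 promoter had 4.2, 5.03 and 3.41 CPM in WT and 5.4, 7.48 and 5.03 CPM in KO, a log2 fold change of 0.49 ± 0.17 (adjusted p = 0.439). KO was above WT in each pair in both genes. In Idi1, KO replicate 3 and WT replicate 2 had the same value to 3 digits, and on unrounded values it was the only 1 of 33 promoters in which the WT and KO libraries did not overlap, against 2.57% of all promoters.

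The Fads2 promoter had 8.35, 10.7 and 5.93 CPM in WT and 9.86, 13.8 and 8.99 CPM in KO, a log2 fold change of 0.37 ± 0.14 (limma-voom adjusted p = 0.494). The Msmo1 promoter had 2.34, 3.96 and 2.03 CPM in WT and 2.66, 6.62 and 2.9 CPM in KO, a log2 fold change of 0.53 ± 0.20 (adjusted p = 0.517). It was thus higher in KO in each pair while the body of the same gene was lower in each pair. Without WT or KO replicate 2 the promoter difference was 0.31 and 0.30. The Scap promoter, with 1.62 to 4.36 CPM, was 0.51 ± 0.29 higher and turned on pair 1. Without WT replicate 1 it was 1.19 higher (adjusted p = 0.0123), without KO replicate 1 it was 1.18 (adjusted p = 0.0119), and without the whole pair it was 1.20 (adjusted p = 0.0485). Those 3 fits called 355, 356 and 246 of all 12107 promoters, against 21 with all libraries.

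The letters of these 4 promoters are shown because they had the smallest p of the promoters and because Hmgcs1 holds the only match to the sterol regulatory element. RefSeq promoters (GRCm38.p6, 250 bases upstream to 50 downstream of the start) were at hand for 25 of the 33 genes, and not for Dgat1, Dgat2, Fads1, Fdps, Scd1, Scd2, Sqle and Stard4. Both strands were searched for TCACNCCAC, a form of the sterol regulatory element, for CCAAT, bound by NF-Y, for GGGCGG, bound by Sp1, and for CACGTG, the E-box. The 150 bases just upstream of the start are printed 5′ to 3′ on the strand of the gene, with matches on either strand in capitals. They lie at chr13:119690201-119690350 (plus strand, Hmgcs1), chr13:8885456-8885605 (plus strand, Idi1), chr8:64733579-64733728 (minus strand, Msmo1) and chr19:10101504-10101653 (minus strand, Fads2).
Hmgcs1: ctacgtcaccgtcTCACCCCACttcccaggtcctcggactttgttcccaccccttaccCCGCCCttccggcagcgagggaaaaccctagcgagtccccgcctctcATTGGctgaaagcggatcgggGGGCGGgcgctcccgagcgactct
Idi1: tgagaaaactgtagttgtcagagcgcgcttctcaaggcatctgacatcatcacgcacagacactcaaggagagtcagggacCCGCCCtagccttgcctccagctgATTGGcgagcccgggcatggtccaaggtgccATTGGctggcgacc
Msmo1: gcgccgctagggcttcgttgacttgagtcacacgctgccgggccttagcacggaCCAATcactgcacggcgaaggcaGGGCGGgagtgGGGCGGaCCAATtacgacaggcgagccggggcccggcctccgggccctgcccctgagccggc
Fads2: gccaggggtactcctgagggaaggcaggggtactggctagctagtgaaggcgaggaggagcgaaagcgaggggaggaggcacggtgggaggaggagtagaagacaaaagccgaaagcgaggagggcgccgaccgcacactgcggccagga

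In Hmgcs1 the capitals mark, from left to right, TCACCCCAC starting 137 bases before the start, GGGCGG on the minus strand at 92, CCAAT on the minus strand at 45 and GGGCGG at 24. In Idi1 they mark GGGCGG on the minus strand at 69 and CCAAT on the minus strand at 45 and 14. In Msmo1 they mark CCAAT at 96, GGGCGG at 73 and 62, and CCAAT at 55. The stretch of Fads2 holds none of the 4 motifs, but its promoter has GGGCGG further upstream, 186 bases before the start. No matches overlap in these stretches.

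Over the whole 300-base windows, TCACNCCAC was found in 1 of the 25 genes, Hmgcs1, or 4.0%, against 1.38% of the genes of the counts table with a promoter entry. CCAAT was found in 20 of 25 (80.0%, against 42.9%), GGGCGG in 22 of 25 (88.0%, against 71.2%) and CACGTG in 5 of 25 (20.0%, against 11.6%). CCAAT was held by 13 of 14 sterol genes and 4 of 7 fatty acid genes, and GGGCGG by 14 of 14 and 4 of 7. With 1 mismatch allowed, TCACNCCAC was found in 10 of 25 (40.0%), against 28.4% of the table's genes. These shares describe letters only, and binding was not measured.

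**Figure D4:**
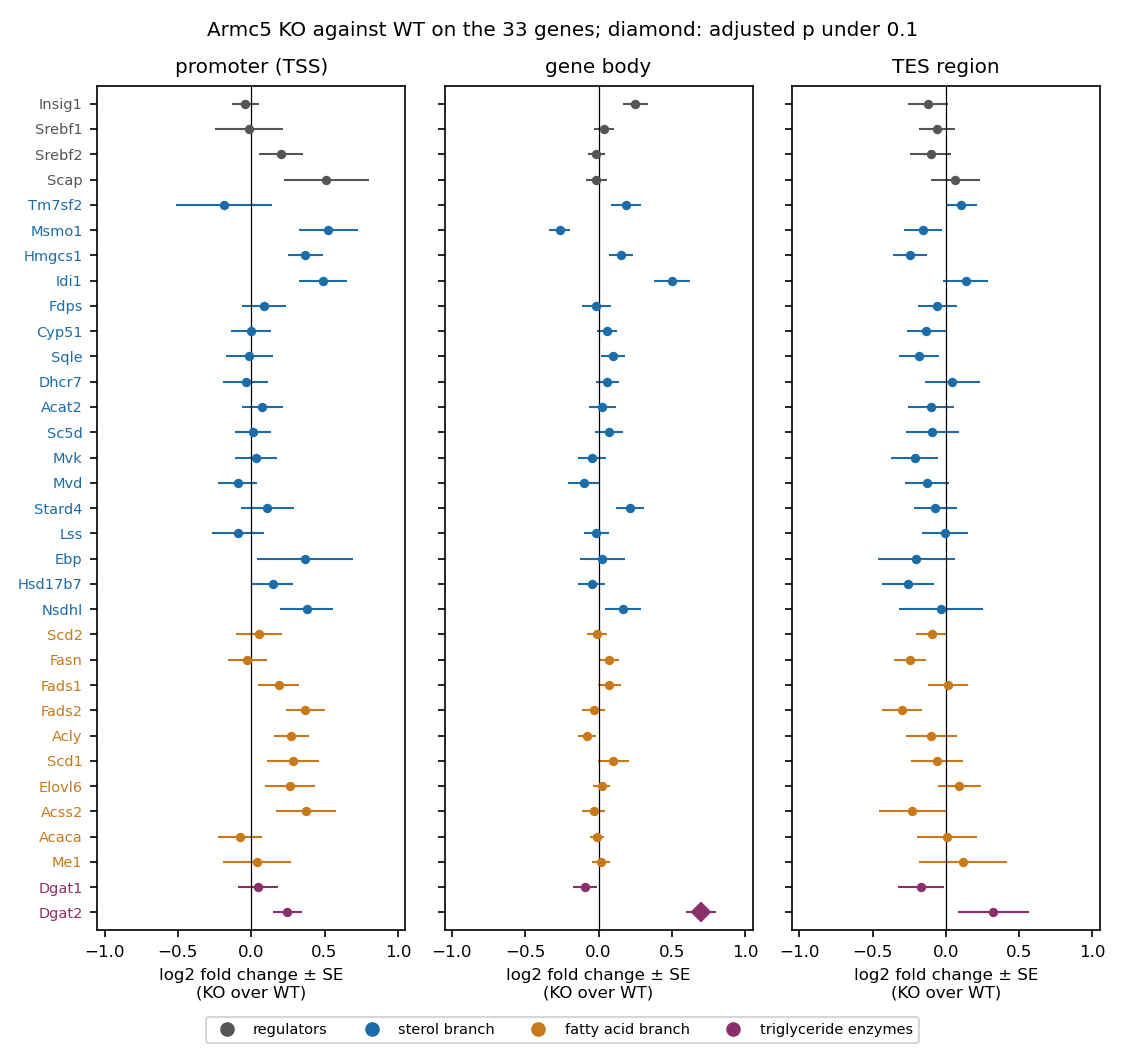
Log2 fold change of KO over WT with its SE for the promoter, gene body and TES region of the 33 genes, ordered within each group by WT gene body density. The gene body of Dgat2, at 0.70 ± 0.10, is the only region with an adjusted p under 0.1 (diamond), and the promoters of the fatty acid branch lie mostly right of 0, at a median of 0.23.

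TES regions leaned the other way, as they did in the table as a whole. The median log2 fold change of the 33 was -0.10, against -0.08 for all TES regions, with 9 above 0 and 24 below. None was called by limma-voom, edgeR or DESeq2, and 1, 1 and 0 had an unadjusted p under 0.05. That is 3.03%, against 6.24% of all TES regions. The TES region of Fasn had 29.4, 12.9 and 21.4 CPM in WT and 22.7, 12.4 and 18.8 CPM in KO, a log2 fold change of -0.25 ± 0.11 (limma-voom adjusted p = 0.593). Replicate 2 was lowest in both genotypes, and KO was below WT in each pair. Fads2 (-0.30 ± 0.14), Hmgcs1 (-0.25 ± 0.12) and Hsd17b7 (-0.26 ± 0.18) followed, and in Fads2 and Hmgcs1 the promoter was above 0 while the TES region was below.

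The pausing index, which is promoter counts over gene body counts on the log2 scale, weighs Pol II near the start against Pol II along the gene. All 33 genes reached the minimum for this test, an average of 10 counts in each of the 2 regions. None passed in limma with the pair as a block, where 0.0331% of 12096 genes passed, and 3 of 33 had an unadjusted p under 0.05, where 10.7% of all genes did. The median difference was 0.05, with 20 above 0, against 0.01 for all genes.

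Msmo1 had the smallest p. Per base, its log2 ratio of promoter to body was -0.04, 1.03 and 0.33 in WT and 0.49, 1.95 and 1.08 in KO, higher in each pair by 0.53, 0.92 and 0.75. The difference was 0.73 ± 0.21 (limma adjusted p = 0.297), and it passed when the minimum was raised to 50 counts (adjusted p = 0.0706), a fit in which 180 genes passed, against 4 in the fit above. The ratio of Dgat2 was 6.43, 5.55 and 4.36 in WT and 5.99, 4.86 and 4.06 in KO, lower in each pair, with a difference of -0.48 ± 0.18 (adjusted p = 0.377). As linear geometric means these are a promoter density 43.6 times that of the body in WT and 31.3 times in KO. Scap was 0.64 ± 0.28 higher, and without WT replicate 1, KO replicate 1 or both it was 1.03 higher, with adjusted p of 0.0922, 0.0903 and 0.0863, in fits that called 370, 366 and 371 genes. Without WT replicate 2, KO replicate 2 or both it was 0.30 higher and did not pass.

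**Figure D5:**
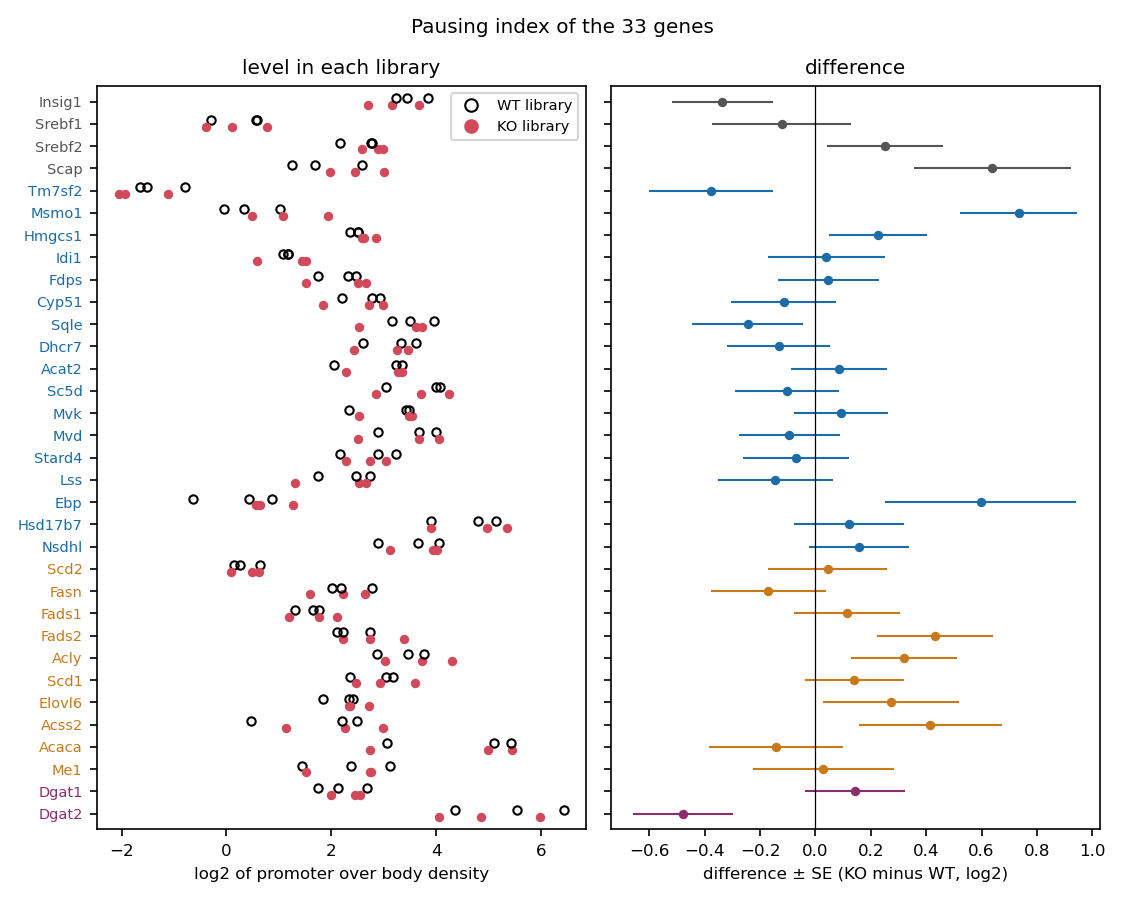
Pausing index of the 33 genes: on the left the log2 of promoter over gene body density per base in each WT (open) and KO (red) library, on the right the difference of KO minus WT with its SE. Dgat2 has the highest ratio in WT, 4.36 to 6.43, and a difference of -0.48 ± 0.18, and Msmo1 has the largest difference, 0.73 ± 0.21, and neither passed.

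Beyond the 33 genes, a list of 68 related lipid genes (further regulators, fatty acid activation, elongation and oxidation, glycerolipid and phospholipid synthesis, lipid droplets, other products of mevalonate, sterol export) had 51 in the table. None of their 153 regions was called by limma-voom, edgeR or DESeq2, and 12, 10 and 3 had an unadjusted p under 0.05. In limma-voom these were 15.7% of promoters, 3.92% of gene bodies and 3.92% of TES regions. Over all genes the shares were 9.95%, 8.41% and 6.24%. The median gene body difference was -0.02, with 21 above 0 and 30 below. The smallest p belonged to the promoter of Acadm, a dehydrogenase of fatty acid oxidation, with 6.64, 7.87 and 2.11 CPM in WT and 9.9, 10.1 and 5.59 CPM in KO, a log2 fold change of 0.60 ± 0.18 (limma-voom adjusted p = 0.352). Abca1, the exporter of cholesterol to lipoproteins, had 272.0, 109.0 and 135.0 CPM in WT and 171.0, 104.0 and 130.0 CPM in KO on its gene body, a log2 fold change of -0.32 ± 0.10 (adjusted p = 0.407), most of it in pair 1. The promoters of Acsl1, which activates fatty acids, and Abhd5, a co-activator of triglyceride breakdown, differed by 0.63 ± 0.20 (adjusted p = 0.415) and 0.44 ± 0.15 (adjusted p = 0.464), each higher in KO in all 3 pairs.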

How the data were processed

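In short, NPCs were fixed with formaldehyde (1%) and sonicated, and POLR2A-bound fragments were sequenced, with no input or spike-in library used here. As tools, the notes of the submitters list MACS2, HOMER, limma, edgeR, Picard, BWA, Trimmomatic and bcl2fastq 2.20, and as build GRCm38 (mm10). For each gene the authors deposited whole-number read counts of the promoter (up to 400 bases before and 100 after the TSS), the body (starting and ending 100 bases inside the gene) and the TES region (up to 100 bases before and 2000 after the TES). They left out genes that gave no signal in KO, so a gene lost entirely in KO would be missing. The deposited log2 CPM values of the authors were used as an alternative. Totals over all regions were 14528870 to 25199455 reads. Where reads include PCR copies, counts overstate the number of molecules, and this was not checked here.

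Genotype and replicate number were read from the titles. Libraries with the same number shared their deviations from the genotype means (correlation 0.628 to 0.704 in promoters, 0.737 to 0.876 in bodies, 0.562 to 0.754 in TES regions), and replicates are described as pairs in the methods, so pair was a block in the fit. Libraries of the same genotype were distinct (chi-square over df from 33.4 to 138). The study's methods call the pairs biological replicates, while the labels name no separate cultures or animals. The p-values reflect the spread between these libraries. The 36321 regions entered a single two-sided limma-voom fit with Benjamini-Hochberg adjustment, and adjusted p under 0.1 was a call (R 4.3.3, limma 3.58.1, edgeR 4.0.16, DESeq2 1.42.0). For the pausing index 0.5 was added to every count, and limma was run with its trend option on, the trend being on the mean log2 ratio. The scripts were tested on simulated data. Positions are from RefSeq (GRCm38.p6) and overlaps from GENCODE vM21. Armc5 itself was not analysed here.

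The genes and lists were chosen with earlier results of these data known. Named were the called regions, the 4 smallest p of each region type and 3 of the pausing test, the highest and lowest body density of each group, and a fixed set of pathway genes. Other genes, among them Stard4 and the Scap promoter, were named after their values were seen.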

Additional observations from a re-analysis of the deposited data

How the results depend on the processing

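Counts of called genes changed with the block, with single libraries and where each region type was scaled and adjusted on its own, while scaling alone (DESeq2 size factors, gene bodies of lowest signal) kept 1 called gene body. With the replicate block removed, or with each region type scaled and adjusted on its own, 0 of 33 gene bodies were called, and the Dgat2 gene body stood at 0.694 and 0.693 (log2). With 1 library or pair left out, 0 to 2 gene bodies were called (Dgat2 and Idi1) and Dgat2 ran from 0.606 to 0.841, 0 to 1 promoters and 0 to 1 pausing indices were called (Scap in each case), and 0 TES regions were. These fits called 6 to 152 gene bodies over all genes, against 25 with all libraries. With a library left out, its partner carries no weight under the block. Testing the pausing index at a mean of at least 50 counts called 1 gene, Msmo1. The Dgat1 gene body, from -0.144 to 0.003 in these fits, changed sign without pair 1. Among the regions and pausing indices rerun under the alternatives, no other difference at least as large as its SE changed sign. The sterol median ran from -0.038 to 0.108 and the fatty acid median from -0.041 to 0.058. With all libraries in the main fit they were 0.059 and 0.003. Each moved from that value by less than the SD of its pair medians, 0.103 and 0.095. Scaling on gene bodies of lowest signal moved the median of all gene bodies from -0.012 to -0.058, and Dgat2 to 0.651 with the call kept. In the whole table the block moved the count of called gene bodies from 0 to 25. Allowing 1 mismatch raised the share of genes with TCACNCCAC from 4.0% to 40.0%. The median SE over all genes was 0.17 for promoters and 0.201 for TES regions, against 0.0886 for gene bodies; the part of depth in this was not tested.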
